A study of Mus musculus with 6 samples.

Results

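Studied here were 8 TALE homeobox genes, of a class that includes cofactors of Hox proteins: Meis1, Meis2 and Meis3, Pbx2 and Pbx3, Pknox1 and Pknox2, and Tgif1. They were chosen by name, as the listed members of the Meis, Pbx, Pknox and Tgif families, and were read from every probe set annotated to 1 of these genes alone. This gave 19 probe sets for 8 genes, out of 45037 probe sets without the array's controls and 18193 genes named on the array. Transcripts were measured on Affymetrix arrays in day 6 embryoid bodies, differentiating aggregates of mouse embryonic stem cells, seeded at 3500 cells/ml from the Hoxb4i embryonic stem cell line. All embryoid bodies, controls included, carried the doxycycline-inducible HOXB4 cassette of that line. The uninduced group (3 arrays) received no doxycycline, and the induced group (3 arrays) received doxycycline at 2 µg/ml for 48 hours from day 4. Experiments A, B and C each gave 1 array to either group. A line without the cassette, given doxycycline, is not among the 6 samples, so HOXB4 and doxycycline itself cannot be told apart.

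TALE proteins are homeodomain proteins with a loop of extra residues between the first and second helices of the homeodomain. PBX proteins bind DNA together with Hox proteins and strengthen their choice of sites. MEIS and PKNOX (PREP) proteins bind PBX through a shared amino-terminal region and help to bring it into the nucleus. TGIF1 belongs to the same homeodomain class but acts mainly as a transcriptional repressor that restrains SMAD and retinoid signalling. In blood, MEIS1 is known as a partner of HOX proteins in stem and progenitor cells, and in the early embryo MEIS and PBX proteins pattern the hindbrain, heart and limbs.

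The values are signals in the arrays' linear intensity scale, 1 per probe set and array. Signals of different probe sets depend on their probes as well as on the transcript, so paralogues were not ranked against one another. The embryoid bodies were measured in bulk, so that fewer cells of a type and less RNA per cell cannot be told apart. The uninduced array of A stood apart in RNA quality. The Actb control probe sets gave a 3'/5' ratio of 2.88 there, against 1.26 to 1.48 elsewhere. For Gapdh the ratio was 1.08, against 0.83 to 0.90. This array held the highest or lowest of the 6 values for 9 of the 19 TALE probe sets, and for 53.8% of all tested probe sets. Hoxb4 itself passed the test with doxycycline on neither of its 2 probe sets. On 1451761_at its signals were 46.5, 119.8 and 113.5 without and 116.4, 129.5 and 175.5 with doxycycline in A, B and C (log2 difference 0.57, 95% confidence interval -0.37 to 1.5, limma adjusted p = 0.99996). On 1460379_at they were 78.2, 253.0 and 27.6 without and 136.3, 261.4 and 150.7 with doxycycline (log2 difference 0.86, interval -0.60 to 2.33, adjusted p = 0.99996). In 3 of 3 experiments the induced array gave the higher signal on either probe set, while the groups overlapped. Whether either probe set reads the transcript of the cassette was not tested, so these values do not measure how far the cassette was induced.

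Signals of all 8 genes lay above a background band. The band was taken from 80 probe sets for olfactory and vomeronasal receptor genes, which belong to sensory neurons of the nose, and ended at their 95th percentile, which lay at signals of 60.9 to 113.6 on the 6 arrays. Each gene had at least 1 probe set above the band on 6 of 6 arrays. Of the 19 probe sets 17 (89.5%) lay above it on all arrays, while this held for 42.5% of all probe sets. The exceptions were 1459423_at of Meis1, above the band on 3 arrays, and 1428017_at of Pknox2, above it on 5.

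**Figure D1:**
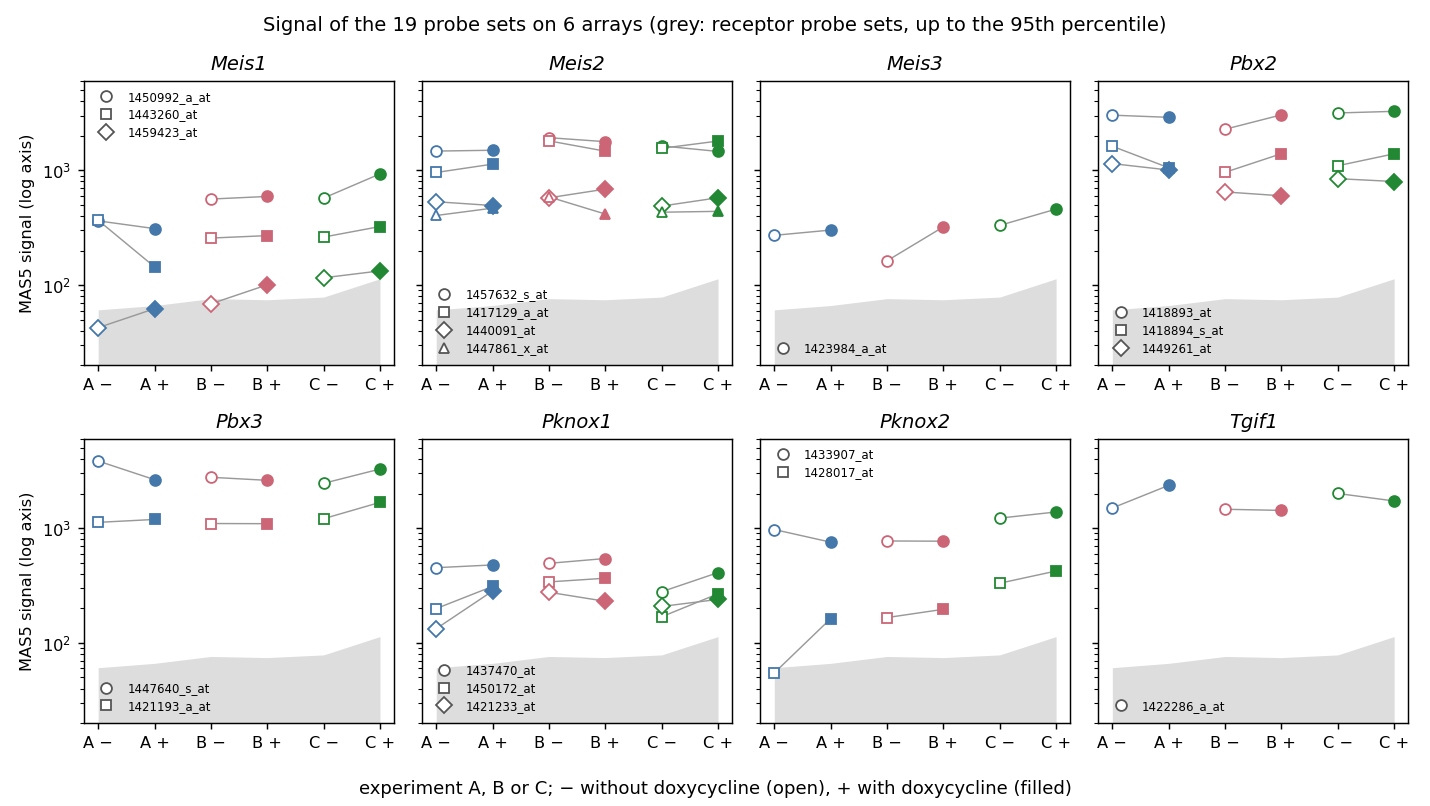
Signal (log axis) of each probe set of the 8 genes in experiments A, B and C without (open) and with (filled) doxycycline, lines joining the 2 arrays of an experiment, grey marking signals up to the 95th percentile of the receptor probe sets. Of the 19 probe sets 17 stay above the grey band on 6 of 6 arrays, and the lowest signals of Meis1 probe set 1459423_at and Pknox2 probe set 1428017_at fall on the uninduced array of A.

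Doxycycline moved none of the 8 genes past the threshold. By limma, 0 of the 19 probe sets passed an adjusted p of 0.05, where 0% of the 27022 tested probe sets did. At an unadjusted p under 0.05 there were again 0 of 19, against 0.511% of all tested; with the experiment letter as a replicate block there were 0 of 19 by the adjusted p, where 0% of all tested passed, and 0 by the unadjusted p, against 3.94% of all tested. The estimates ran from a log2 difference of -0.30 to 0.62, 13 above and 6 below 0. Their median was 0.13, and over all tested probe sets it was 0.0091. On 0 of 19 probe sets did the induced and uninduced arrays separate without overlap, while 2.24% of all tested probe sets separated with the induced arrays higher and 2.11% with them lower. For 6 of 19 (31.6%) the 3 experiments pointed the same way, against 26% of all tested, 5 of these higher and 1 lower with doxycycline. Without the block, the half-width of the 95% interval ran from 0.45 to 1.41 log2 units with a median of 0.69. Smaller differences could not be told from the spread between arrays in that fit, which ignores the pairing by experiment. With the replicate block the median half-width was 0.47. Intervals of doxycycline differences are from the fit without the block unless stated.

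**Figure D2:**
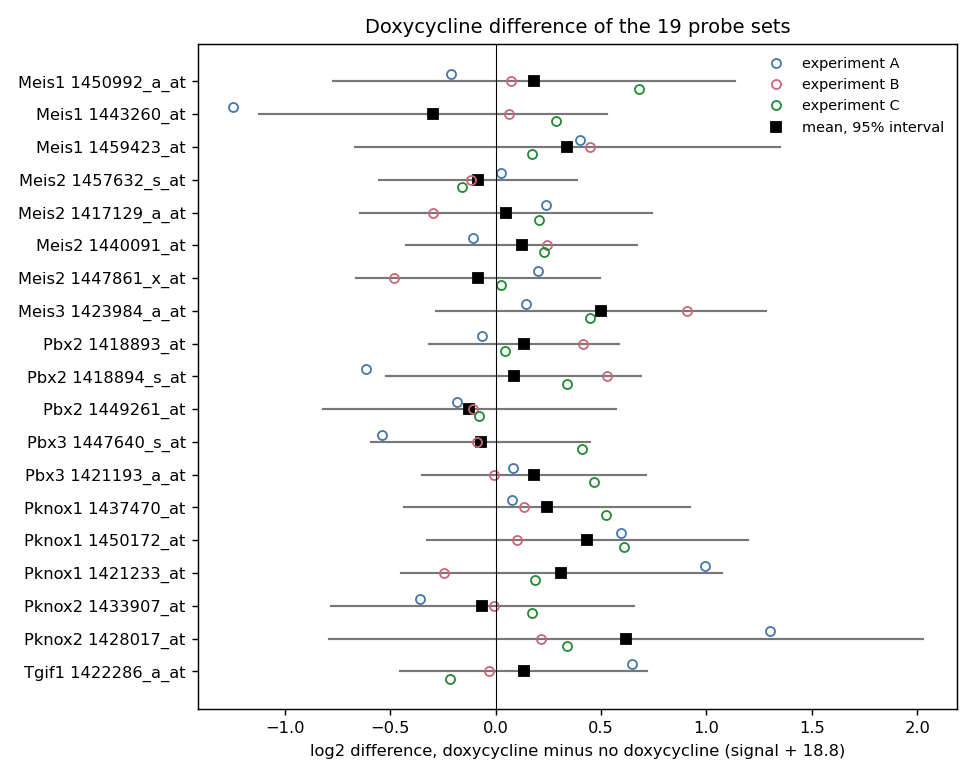
Log2 difference with doxycycline for each of the 19 probe sets: black squares with grey lines are limma's mean and 95% confidence interval (n = 3 arrays per group), open circles the 3 experiments. Every interval holds 0, and the open circles of A lie farthest out for Meis1 probe set 1443260_at (-1.24) and Pknox2 probe set 1428017_at (1.30).

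Meis1, the MEIS gene best known from blood stem cells, had 3 probe sets that did not move together. On 1450992_a_at the signals without doxycycline were 362.9, 562.2 and 573.2 in A, B and C, and with doxycycline 310.7, 592.2 and 930.9. The induced array of C was the highest and both arrays of A were the lowest, so the groups overlapped. The uninduced mean was 499 ± 118 and the induced mean 611 ± 311 (SD, n = 3 each), a log2 difference of 0.18 with an interval of -0.77 to 1.13. Probe set 1443260_at gave 367.5, 257.0 and 262.2 without and 144.2, 269.9 and 323.7 with doxycycline. There the arrays of A were both the highest and the lowest of the 6, and the experiments gave differences of -1.24, 0.066 and 0.29. On 1459423_at, near the background band, the signals were 42.6, 68.7 and 115.8 without and 62.3, 100.6 and 133.0 with doxycycline. These were higher with doxycycline in 3 of 3 experiments, by 0.40, 0.45 and 0.17 log2 units, with an interval of the mean difference of -0.67 to 1.35. Across the 6 arrays 1450992_a_at and 1459423_at correlated at r = 0.84, while 1443260_at correlated with them at 0.49 and 0.10. These correlations describe 6 arrays that share 3 experiments.

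Meis2, a paralogue active in the embryonic nervous system, heart and limbs, had the probe set with the lowest coefficient of variation among the 19. The signals of 1457632_s_at were 1471.6, 1925.6 and 1633.1 without and 1496.4, 1777.7 and 1461.3 with doxycycline, means of 1677 ± 230 and 1578 ± 173 (SD, n = 3 each). Both arrays of B were above the other 4, and in each experiment the induced and uninduced values lay close together. The log2 difference with doxycycline was -0.083, with an interval of -0.55 to 0.39. The highest of its signals was 1.32 times the lowest. On 1417129_a_at the signals were 957.9, 1806.4 and 1555.8 without and 1132.9, 1468.6 and 1799.4 with doxycycline, both arrays of A being the lowest. The coefficient of variation over the 6 arrays was 11.7% and 23.9% on these probe sets, 13.1% on 1440091_at and 14.6% on 1447861_x_at. The median over all tested probe sets, not matched for signal, was 29.2%.

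Meis3, the least studied of the MEIS genes, was measured by a single probe set, which gave 271.4, 162.8 and 331.5 without and 301.7, 321.6 and 459.4 with doxycycline. The uninduced array of B was the lowest and the induced array of C the highest, and the groups overlapped. Means were 255 ± 85.5 and 361 ± 85.9 (SD, n = 3 each), a log2 difference of 0.50 with an interval of -0.28 to 1.28. All 3 experiments lay above 0, at 0.14, 0.91 and 0.45. With the replicate block the interval was -0.050 to 1.05 and limma's unadjusted p 0.0695 (adjusted p = 0.930).

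Pbx2 and Pbx3 encode the PBX partners that contact Hox proteins directly. Pbx2 on 1418893_at had signals of 3025.2, 2279.8 and 3161.6 without and 2896.4, 3044.8 and 3266.6 with doxycycline. The uninduced array of B was the lowest and the other 5 lay within 2896.4 to 3266.6. Means were 2822 ± 475 and 3069 ± 186 (SD, n = 3 each), a log2 difference of 0.13 with an interval of -0.32 to 0.58. Its probe set 1418894_s_at differed by -0.61 in A but by 0.53 and 0.34 in B and C. Probe set 1449261_at, by contrast, followed the experiments: A gave 1144.5 without and 1006.6 with doxycycline, B 648.4 and 600.1, and C 846.3 and 799.4. The experiment accounted for 95.8% of its sum of squares on the log2 scale, the highest share among the 19, and it was the 1 probe set that was lower with doxycycline in 3 of 3 experiments, at -0.18, -0.11 and -0.080.

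Pbx3 on 1447640_s_at gave 3845.7, 2775.3 and 2459.3 without and 2646.2, 2611.4 and 3273.9 with doxycycline. The highest signal lay on the uninduced array of A and the lowest on the uninduced array of C, so the uninduced arrays spanned the induced ones. Means were 3027 ± 727 and 2844 ± 373 (SD, n = 3 each), a log2 difference of -0.071 with an interval of -0.59 to 0.45. Its other probe set, 1421193_a_at, stayed between 1093.8 and 1209.3 on 5 arrays and reached 1677.4 on the induced array of C. The 2 probe sets correlated at r = 0.26 over the 6 arrays.

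Pknox1, which encodes the widely expressed PREP1, had 3 probe sets with estimates above 0. On 1437470_at the signals were 452.6, 493.9 and 279.4 without and 478.2, 543.9 and 409.9 with doxycycline. Both arrays of C were the lowest, and within each experiment the induced array was the higher. Means were 409 ± 114 and 477 ± 67.0 (SD, n = 3 each), a log2 difference of 0.24 with an interval of -0.43 to 0.92. Probe set 1450172_at, also higher in 3 of 3 experiments, stood at 0.44 with an interval of -0.33 to 1.2. On 1421233_at the difference was 0.99 in A, where the uninduced array was lowest of all at 133.1, and -0.24 and 0.19 in B and C.

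Pknox2, the paralogue with a more restricted pattern in tissues, had the probe set with the widest range of signals. On 1433907_at the signals were 973.1, 773.6 and 1223.4 without and 755.2, 769.9 and 1383.9 with doxycycline. Both arrays of C were above the other 4, and induced and uninduced arrays overlapped, with means of 990 ± 225 and 970 ± 359 (SD, n = 3 each) and a log2 difference of -0.063 (interval -0.78 to 0.65). Probe set 1428017_at had signals of 54.8, 166.3 and 331.3 without and 162.7, 196.4 and 423.3 with doxycycline. Both arrays of C were again the highest, and the uninduced array of A, which fell below the background band, was by far the lowest. Its highest signal was 7.72 times its lowest, and its coefficient of variation was 59.5%. With doxycycline it stood at 0.62 with an interval of -0.79 to 2.03; the experiments gave 1.30, 0.22 and 0.34.

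Tgif1, the repressor of the group, was measured by 1 probe set. Its signals were 1499.0, 1461.2 and 2006.4 without and 2360.0, 1428.1 and 1725.4 with doxycycline. The induced array of A was the highest, both arrays of B were the lowest, and the groups overlapped. Means were 1656 ± 304 and 1838 ± 476 (SD, n = 3 each), a log2 difference of 0.13 with an interval of -0.45 to 0.72. By experiment the difference was 0.65, -0.033 and -0.22.

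The second comparison asked how stable the TALE genes were between the replicate experiments. With all 6 arrays, 1 of 19 probe sets (5.26%) differed among A, B and C by limma's F test at an adjusted p under 0.05, where 11.6% of the tested probe sets did. It was 1428017_at of Pknox2, which was higher in C than in A by 1.77 log2 units, with an interval of 0.93 to 2.60 (F test, limma adjusted p = 0.0404). At an unadjusted p under 0.05 there were 5 of 19 (26.3%), against 32.5% of all tested: both Pknox2 probe sets, 1450992_a_at of Meis1, 1417129_a_at of Meis2 and 1449261_at of Pbx2. The means of the experiments differed by over 1 log2 unit for 3 of 19 probe sets (15.8%), against 25.5% of all tested. These were 1450992_a_at of Meis1 (1.08, C over A), 1428017_at of Pknox2 and 1459423_at of Meis1. On 1459423_at both arrays of A lay in the background band. With A set to the upper end of the band, the mean of C was 1.74-fold higher (0.79 log2 units, against 1.02 from the signals as measured). The interval of the measured difference was 0.11 to 1.93, and this probe set did not pass the F test (limma adjusted p = 0.214). On 1428017_at of Pknox2 1 of the 2 arrays of A lay in the band. The coefficient of variation was under the median of all tested probe sets for 15 of 19 and ran from 11.7% to 59.5%. That median was not matched for signal, so brightness and stability cannot be told apart in this count.

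**Figure D3:**
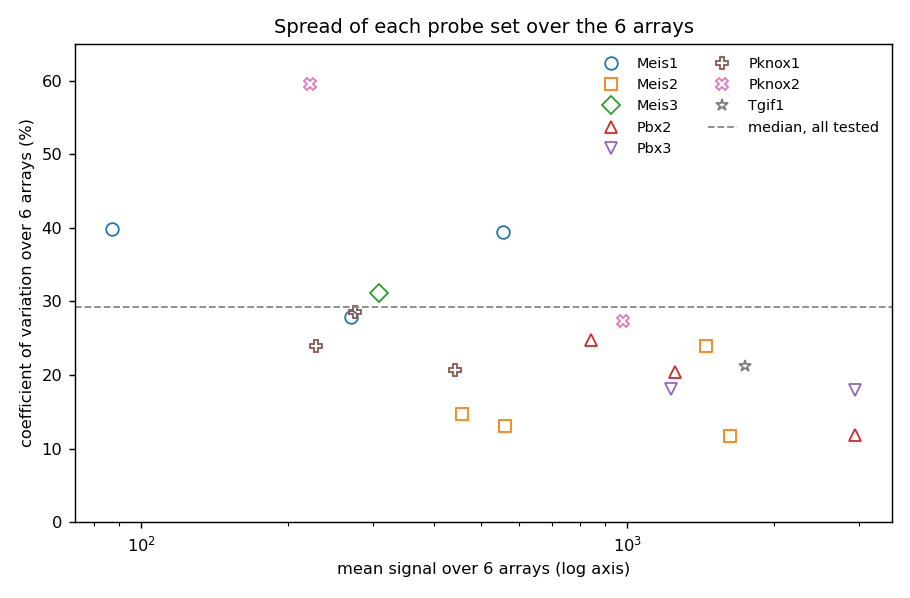
Coefficient of variation (SD over mean, in percent) of the signal over the 6 arrays against the mean signal (log axis), 1 point for each of the 19 probe sets. The lowest points are the probe sets 1457632_s_at of Meis2 (11.7%) and 1418893_at of Pbx2 (11.9%), and those above the dashed median of all tested probe sets (29.2%) belong to Meis1, Meis3 and Pknox2.

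This count rested on the arrays of A and C. Without the uninduced array of A, 8 of 19 passed (32.4% of all tested), and without the induced array of A 10 of 19 (51.1%). Without the uninduced or the induced array of C it was 0 of 19 (5.65% and 5.56%). A fit without 1 array leaves an experiment with a lone sample, which is assumed to vary like the others. With both arrays of A left out, C and B were compared with 2 arrays each, and 7 of 19 passed (36.8%), against 30.3% of all tested.

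In that comparison of C with B on 4 arrays, 5 probe sets were higher in C (16.5% of all tested were) and 2 lower (13.8%). With so few arrays, its intervals and p rest mostly on the variance that limma pools over probe sets. They say little of the spread of each probe set itself. Both Pknox2 probe sets were higher, 1433907_at by 0.74 log2 units with an interval of 0.43 to 1.05 (limma adjusted p = 3.56e-05) and 1428017_at by 0.98 with an interval of 0.47 to 1.49 (adjusted p = 0.00116). Meis3 was higher by 0.72 (adjusted p = 0.0141), Pbx3 on 1421193_a_at by 0.37 (0.0420) and Tgif1 by 0.36 (0.0340). Pknox1 was lower in C, at a log2 difference of -0.59 on 1437470_at and -0.68 on 1450172_at, with intervals of -1.0 to -0.17 and -1.18 to -0.18 (adjusted p = 0.0219 and 0.0278). The third Pknox1 probe set stood at -0.16 and did not pass, nor did any probe set of Meis1, Meis2 or Pbx2. None of these 7 calls held on all 6 arrays. There the same difference of C minus B passed for 0 of 19 probe sets by the adjusted p (9.59% of all tested passed) and for 5 by the unadjusted p (24.3%), which were both of Pknox2, the same 2 of Pknox1 and that of Meis3. The estimates are the same in both fits, but the intervals on 6 arrays were wider. Pknox2 then had adjusted p of 0.0812 on 1433907_at and 0.142 on 1428017_at, Meis3 0.179, Pknox1 0.20 on 1437470_at and 0.191 on 1450172_at, Pbx3 on 1421193_a_at 0.330, and Tgif1 0.414 with an interval of -0.19 to 0.91 (limma).

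Marker lists of 7 lineages of embryoid bodies were read between B and C beside the TALE genes, with no test of the difference between lists. Over the 19 TALE probe sets the median absolute log2 difference of C and B was 0.33, and over all tested probe sets 0.36. The medians of the marker lists that follow are signed. Few markers lay above the background band on 6 of 6 arrays: 1 of 7 neural, 2 of 7 cardiac, 2 of 6 blood and 0 of 7 endothelial. The same held for 3 of 7 endoderm, 4 of 7 pluripotency and 2 of 7 paraxial mesoderm and mesenchyme markers. Differences that reach into the band were not bounded, so their size is uncertain. All 6 tested neural markers of 7 listed were higher in C, with a median of 2.63, and the summed signal of the listed markers was 463.5 and 259.3 in B and 4030.6 and 3293.7 in C, uninduced first. All 6 tested blood markers were lower in C, from -0.79 (Gata1) to -4.65 (Hba-x), with a median of -2.88. Their sums were 37364.3 and 27190.3 in B and 1714.7 and 1446.9 in C. Globin genes made up most of the sum in B, with 27950.9 from Hbb-bh1 and 7277.8 from Hba-x on its uninduced array. All 7 endothelial markers were lower (median -3.33), with sums of 5135.5 and 5570.0 in B and 704.4 and 280.1 in C, as were all 6 tested cardiac markers (-1.44) and 6 of 7 endoderm markers (-2.01), while all 7 pluripotency markers were higher (1.67). Of 6 tested paraxial mesoderm and mesenchyme markers 5 were higher and 1 lower (median 0.17, median absolute difference 0.58). The lower was Col1a1, at -4.56. Sums of this list were 2765.4 and 3646.1 in B and 814.5 and 1059.9 in C. Col1a1 gave 2259.5 and 2988.6 of those in B. The 7th listed, Prrx1, lay in the background band on all arrays. In A the sums lay at 2262.9 and 1288.2 for the neural and 621.8 and 3390.7 for the blood markers. Marker signals in bulk do not tell fewer cells of a type from less RNA per cell. Whether the marker differences between B and C bear on the values of Pknox1, Pknox2, Meis3, Pbx3 and Tgif1 was not tested.

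**Figure D4:**
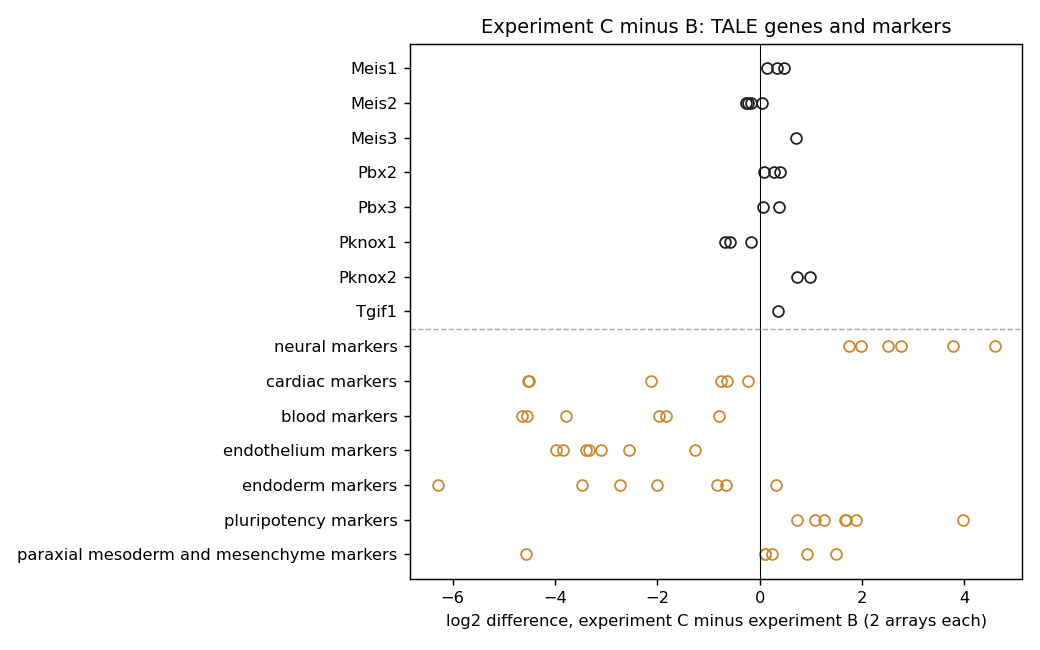
Log2 difference of experiment C minus experiment B (means of 2 arrays each) for the probe sets of the 8 TALE genes (black) and for the tested markers of 7 lineages (orange). The TALE probe sets lie between -0.68 and 0.98, while neural markers have a median of 2.63 and endothelial markers one of -3.33. Of 7 listed markers each, 1 neural and 0 endothelial lay above the background band on 6 of 6 arrays.

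Other TALE genes were given by a list of 10, with 9 on the array under their name and 6 tested. With doxycycline 0 of 6 passed, against 0% of all tested probe sets, with 4 estimates above and 2 below 0 (median 0.14). Between experiments 2 of 6 passed the F test on all 6 arrays, where 11.6% of all tested probe sets did, both Iroquois genes of neural and mesodermal patterning. Irx2 had signals of 210.2, 196.4 and 1173.1 without and 226.3, 126.4 and 1306.7 with doxycycline in A, B and C (limma adjusted p = 0.00183), so that both arrays of C stood far above the rest. Irx1 had 328.9, 142.6 and 521.1 without and 454.1, 195.6 and 668.7 with doxycycline (adjusted p = 0.0117). Irx5, the next by p, did not pass (adjusted p = 0.0662). Of the 9 genes, 5 lay above the background band on 6 of 6 arrays.

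Partners and corepressors of the TALE proteins, among them proteins that bind PBX or TGIF and histone deacetylase complexes, were tested for all 9 listed genes. None passed with doxycycline or between experiments (0 of 9 each), against 0% and 11.6% of all tested probe sets. The median log2 difference was 0.078 with doxycycline and 0.22 for C minus B. Those with the smallest p between experiments were the corepressor genes Ctbp1 (limma adjusted p = 0.0610) and Sin3a (0.181), and Pbxip1, which encodes a PBX-binding protein (0.162). Of 8 genes reported elsewhere as Meis or Pbx targets 7 were tested. With doxycycline 0 of 7 passed (median 0.10), against 0% of all tested probe sets. Between experiments 3 of 7 passed the F test over A, B and C, against 11.6% of all tested. Epas1, a hypoxia-inducible factor gene also active in endothelium, was highest in B at 2714.0 and 3285.9, with 741.5 and 900.3 in A and 278.9 and 261.6 in C, uninduced first (limma adjusted p = 0.000444). Trib2, a pseudokinase gene, gave 1055.9 and 724.2 in C, 390.9 and 376.8 in A, and 159.3 and 136.4 in B (adjusted p = 0.0034). The neural gene Pax6 gave 1016.2 and 305.5 in A, 463.4 and 283.1 in C, and 90.6 and 67.5 in B (adjusted p = 0.00883), with its highest signal on the uninduced array of A and both arrays of B the lowest. Pax6 is also one of the neural markers above.

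By their profile over the 6 arrays, Meis1 and Pknox2 were set beside the other tested genes, since these 2 had the smallest F test p when each gene was read from its brightest tested probe set. Most like Meis1 (1450992_a_at) were Fbxo32, which encodes a ubiquitin ligase subunit, at r = 0.994, Gm41810 at 0.993 and Lrrc20 at 0.987. Most like Pknox2 (1433907_at) were Ahcy, the gene of S-adenosylhomocysteine hydrolase, at 0.996, Itprip at 0.995 and Lrp4 at 0.994. With 6 arrays such values are common: 57 genes correlated with Meis1 above 0.95, and 139 with Pknox2. Between the 8 members themselves r ran from -0.74 (Pknox1 and Pknox2) to 0.94 (Meis3 and Pbx2). These are descriptions over arrays that share 3 experiments.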

How the data were processed

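Per the submitters' processing notes, the deposited intensity of each probe set was made with MAS5, from Affymetrix Mouse Genome 430 2.0 arrays. Its version is not given in the sources used here. A trimmed mean (2% cut from either end) is 500 in all 6 columns, which shows that the authors scaled them to a common target; nothing further was normalized. Gene names came from the platform annotation in GEO, with symbols updated by Entrez ID in a RefSeq table of GRCm38.p6: 34945 probe sets had 1 gene, 932 several and 9160 none. The 64 control probe sets were left out.

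log2(signal + 18.8) was analysed, 18.8 being the 20th percentile of all values, which understates differences of dim probe sets. A mean signal of at least the 40th percentile (60.5) was required for testing, met by 27022 probe sets, all 19 TALE probe sets among them. The doxycycline comparison used limma 3.58.1 under R 4.3.3 with an intensity trend, two-sided, adjusted by Benjamini and Hochberg across the tested probe sets at a threshold of 0.05, and experiments were compared by limma's F test with the group as covariate. The functions were tested on simulated data. A gene was represented by its tested probe set of highest mean. Per the labels, a letter stands for 1 experiment shared by both groups, and same-letter deviations from their group means had correlations of 0.45, 0.67 and 0.66, so the letters were taken to pair the arrays.

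All 19 probe sets are described. Of the lists of other TALE genes, partners and targets, up to 3 genes with the smallest F test p were named. Profile likeness was given for the 2 members of smallest F test p, since no representative passed. Members and lists were chosen with earlier results of these data known. Alternatives are given in the closing section.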

Additional observations from a re-analysis of the deposited data

How the results depend on the processing

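The count of TALE probe sets past the threshold with doxycycline was 0 under all 16 alternatives, the replicate block and each array left out (0 to 0) included, and the count of genes above the background band was 8 under all 4. The number that differed between experiments was 1 on all arrays. It was 0 with log2(signal + 1), 0 with no filter, 0 with no intensity trend, 2 with array weights, 7 with both arrays of experiment A left out, 0 with both arrays of C left out, and 0 to 10 with each array left out. It was 1 with log2(signal + 50), quantile normalization, no group term, or both arrays of B left out.

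The sign of the doxycycline estimate was kept under all 17 alternatives for Meis3 and Pknox1 and turned under at least 1 for the other 6 genes, with 18 of 136 values turned and 0 past the threshold. With each array left out, which unbalances the experiments, the range was 0.23 to 0.70 for Meis3 (0.50 on all arrays, lowest without the uninduced array of B), 0.0043 to 0.40 for Pknox1 (0.24 on all arrays, lowest without the uninduced array of C), -0.18 to 0.58 for Meis1, -0.17 to 0.020 for Meis2, -0.013 to 0.22 for Pbx2, -0.21 to 0.11 for Pbx3, -0.34 to 0.099 for Pknox2 and -0.061 to 0.30 for Tgif1. Meis1 was at -0.21 with array weights and -0.070 with both arrays of C left out. Without both arrays of A, Pbx3 was at 0.16, Pknox2 at 0.084 and Tgif1 at -0.12, and without both of B, Pbx2 was at -0.0078. As means over all probe sets of the gene, Meis2 was at 0.0017, Pbx3 at 0.055 and Pknox2 at 0.28. The cause of these changes was not tested.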

Other observations

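The highest and lowest of the 6 signals of the TALE probe sets were spread over the arrays. The induced array of C held the highest signal of 7 of the 19 probe sets and the lowest of 1, and the uninduced array of C the highest of 0 and the lowest of 4. The uninduced array of A held 4 of the highest and 5 of the lowest. Over all tested probe sets, the share for which an array was highest or lowest was 53.8% for the uninduced array of A and 39.8% for the induced array of C, against 17.6% to 31.4% for the others.

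Probe sets of 1 gene often disagreed over the 6 arrays. Within Meis2 the correlations between probe sets ran from -0.029 (1440091_at and 1447861_x_at) to 0.62 (1457632_s_at and 1447861_x_at), and within Pknox1 from 0.20 to 0.84. The Pknox2 pair correlated at 0.54 and within Pbx2 the values were 0.29 to 0.63.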
